A study of Mus musculus with 6 samples.

Results

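The genes of the contractile apparatus were followed in cultured calvarial preosteoblasts, as 14 smooth muscle and myofibroblast genes and 18 skeletal muscle genes. These 32 members were taken by name from a table of 17001 gene rows, and all 32 were present in it. The cells were primary preosteoblasts released from the skull vault of pups aged 3 days by trypsin and collagenase and grown in α-MEM with fetal bovine serum. Polyadenylated RNA was sequenced in 6 libraries, 3 from NELL2 fx/fx pups (control) and 3 from Col1-cre; NELL2 fx/fx pups (cKO). Both groups carry the floxed Nell2 alleles, and the groups differ by a Cre transgene driven by a fragment of the mouse Col1a1 promoter, which is active in osteoblasts. The study asked how deletion of Nell2, which encodes a secreted EGF-like protein, alters gene expression in these cells. Values are FPKM, fragments scaled by transcript length and library size, so levels of different genes can be set side by side. The labels do not say whether the 3 libraries of a group came from separate litters or cultures, and p-values therefore measure only the spread between these libraries.

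The targeted gene did not separate the groups. Nell2 was measured at 3.17, 2.59 and 1.88 FPKM in controls 1, 2 and 3 and 5.64, 1.61 and 5.74 FPKM in cKO 1, 2 and 3. Its values in the cKO libraries overlapped those of the controls, with a log2 fold change of 0.48 ± 0.37 (SE) and an adjusted p of 0.591 (limma), so the level of this transcript does not bear out the labels, and cKO below means the libraries labelled cKO. The study reported, by qRT-PCR and western blotting, that NELL2 was deleted in calvarial preosteoblasts of this genotype. Whether those cells were the ones sequenced is not stated. The position of the floxed exons was not used here, and FPKM over a whole gene need not show the loss of a part of it. Osteoblast markers were present in every library, with Col1a1 between 8053 and 8578 FPKM and Runx2 between 11.0 and 14.7 FPKM. The 6 libraries resembled each other, with pairwise correlations of log2(FPKM + 1) from 0.982 to 0.994. The summed level of 4 Y-linked genes was 54.7 FPKM in control 3, 52.8 FPKM in cKO 1 and 49.6 FPKM in cKO 3, against at most 0.29 FPKM in the other 3 libraries, so Y-linked RNA was present in 1 control and 2 cKO libraries. Depth cannot be read from FPKM, and no counting interval is given.

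Smooth muscle and skeletal muscle cells contract by the same principle, myosin pulling on actin, but build the machine from different genes. In smooth muscle and in myofibroblasts the actins Acta2 and Actg2 run beside calponin, transgelin and caldesmon, and myosin is switched on by phosphorylation of its regulatory light chain. Transcription of many of these genes depends on serum response factor (SRF), which binds the CArG box, together with myocardin or the related MRTF coactivators, which respond to the state of the actin cytoskeleton. Spread cells on culture plastic, fibroblasts and osteoblast precursors among them, are known to express Acta2 and Tagln as stress fibre genes. In skeletal muscle the E-box binding factors MyoD and myogenin start a programme of sarcomeric actins, myosins and troponins, and calcium binding to troponin releases the thin filament. MEF2 factors act with them.

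The starts of the genes were searched for these motifs, as a description of both lists. Whether these factors act on the genes in these cells was not tested. Of the 32 members, 25 matched a promoter in the RefSeq table (GRCm38.p6), through 28 start sites, and the 250 bases before each start were read on both strands. Tagln, Myh11, Actg2, Myocd, Myod1, Tnnt3 and Tnni2 were not matched. A perfect CArG box (CC and GG around 6 bases of A or T) was found at 3 of these 28 starts, those of Acta1, Actc1 and Myl9, while 1.47% of all 32851 promoters in the table held it. A form with 1 G or C within the core, a search added after the first was seen, was found at 6 of the 28, against 7.24% of all promoters. These were 4 of 17 skeletal starts, those of Acta1, Actc1, Ckm and Mylpf, and 2 of 11 smooth starts, those of Acta2 and Myl9. Acta2 held it at 2 positions, and Acta1 and Actc1 also held it at more than 1. The MEF2 motif (CTA, 4 bases of A or T, TA and a purine) was found at Myh8 and Synpo2, 2 of the 28, against 1.69% of all promoters. An E-box, CANNTG, was found at 24 of the 28, against 66.2% of all promoters. By list, these were 15 of 17 skeletal and 9 of 11 smooth starts. The windows of 30 bases below have the motif in capitals. They show the perfect CArG boxes of Acta1, Actc1 and the light chain Myl9, and the 2 boxes of Acta2 with 1 G or C. The MEF2 motif of the myosin Myh8, which reads on the opposite strand, is also shown. Boxes with 1 G or C in genes other than Acta2 are not shown.
Acta2, chr19:34255438-34255467, minus strand, box starting 84 bases before the start: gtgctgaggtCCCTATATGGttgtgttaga
Acta2, chr19:34255388-34255417, minus strand, box starting 34 bases before the start: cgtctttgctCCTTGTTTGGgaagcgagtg
Myl9, chr2:156775293-156775322, plus strand, box starting 161 bases before the start: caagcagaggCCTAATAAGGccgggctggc
Acta1, chr8:123894829-123894858, minus strand, box starting 73 bases before the start: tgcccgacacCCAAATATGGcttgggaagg
Actc1, chr2:114052903-114052932, minus strand, box starting 47 bases before the start: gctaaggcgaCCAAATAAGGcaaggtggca
Myh8, chr11:67277015-67277044, plus strand, box starting 99 bases before the start: ccttgtcaaaTTATTTATAGgagattggtt
A perfect box thus stood before 2 genes of the skeletal list and 1 of the smooth list. In the GENCODE vM21 annotation of GRCm38, both Acta2 windows lie within an exon of a longer Acta2 transcript, the Actc1 window lies in introns of Actc1 and of the overlapping gene A530058N18Rik, the Acta1 window lies in an intron of Gm20388, and the Myl9 and Myh8 windows lie between genes.

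The 4 muscle actins are close paralogs, and their transcripts were compared to see how far they can be told apart. The coding sequences of Acta2, Actg2, Acta1 and Actc1 (GENCODE vM21) were 82.6% to 86.3% identical in pairs, and the longest run of bases shared by any pair of their transcripts was 38 bases, between Actg2 and Actc1. Against the cytoplasmic actins the longest shared run was 77 bases, between Acta1 and Actb. No stretch of 150 bases, the length of a sequenced read, was shared by any pair among the 6 actins.
How the authors' counting treated shorter matches between paralogs is not given in the sources used here. Among the skeletal members, some are neighbours in the genome. Mybph and Myog lie 88.8 kb apart on chromosome 1, Tnni1 and Tnnt2 25.4 kb apart on the same chromosome, Tnni2 and Tnnt3 54.4 kb apart on chromosome 7, and the myosin genes Myh3 and Myh8 174.8 kb apart on chromosome 11.

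Levels differed by orders of magnitude between the lists, as the plot of levels by gene shows. The summed FPKM of the 14 smooth muscle genes lay between 4403 and 4958 in a library, and that of the 18 skeletal muscle genes between 113 and 233. Acta2, Tpm1, Tagln and Myl9 held 85.4% of the smooth sum, and Acta2 alone, at a mean of 1893 FPKM over the 6 libraries, ranked 48th among the 17001 rows. Acta1 (29.1 FPKM on average) and Mylpf (27.5 FPKM) led the skeletal list.

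**Figure D1:**
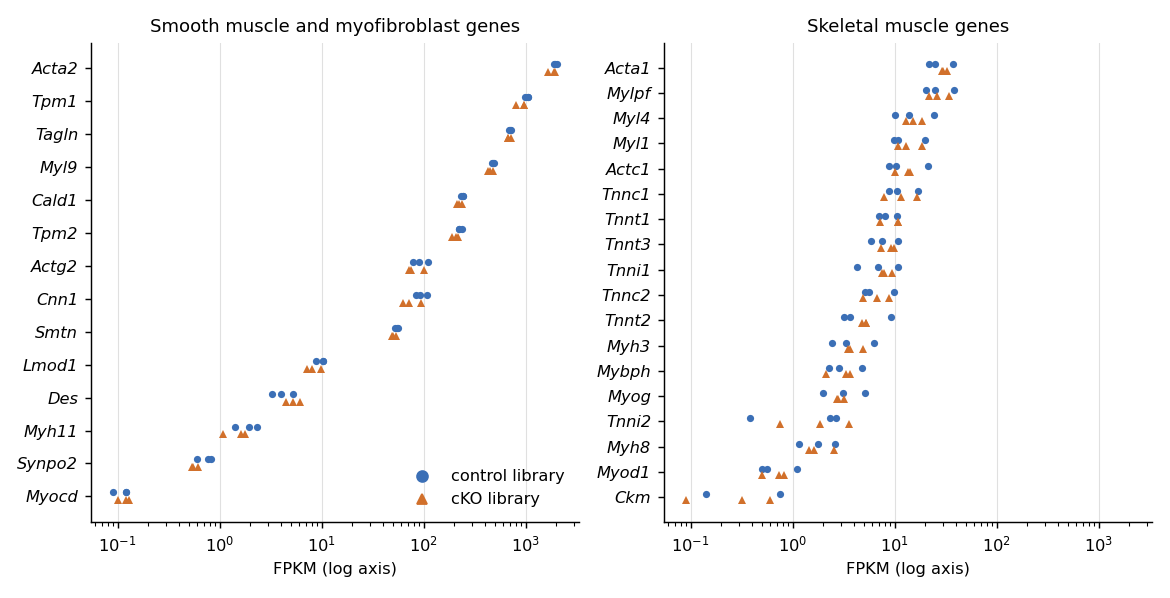
FPKM of each member on a log axis, with 3 control libraries (circles) and 3 cKO libraries (triangles) per gene, ordered by the mean. Acta2 sits near 1893 FPKM while the highest skeletal gene, Acta1, averages 29.1 FPKM, and the controls of most skeletal genes spread farther apart than those of the abundant smooth muscle genes. Ckm in control 2 is listed at 0 and is not drawn.

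Among the smooth muscle actins, Acta2, the α-actin of smooth muscle and myofibroblasts, stood at 1946, 2036 and 1885 FPKM in controls 1, 2 and 3 and 1940.0, 1671 and 1883 FPKM in cKO 1, 2 and 3. Actg2, the enteric γ-actin, was measured at 90.8, 111 and 79.2 FPKM in the controls and 100.3, 72.4 and 75.3 FPKM in the cKO libraries. Cnn1, calponin, which binds actin and restrains myosin, gave 92.6, 108 and 84.7 FPKM in the controls and 94.2, 62.5 and 72.3 FPKM in the cKO libraries. The groups overlapped for these 3 genes, and control 2 was the highest library and cKO 2 the lowest for each. Actg2 and Cnn1 ordered all 6 libraries alike, an order found in 0.50% of the 11590 rows tested. The order of Acta2 was that of Actb, the cytoplasmic β-actin, and was found in 1.1% of rows.

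Tpm1, a tropomyosin that winds along the actin filament, stood at 1065, 975 and 1044 FPKM in controls 1, 2 and 3 and 963, 958 and 809.5 FPKM in cKO 1, 2 and 3. Its relative Tpm2 was measured at 238, 220.2 and 221 FPKM in the controls and 215, 188 and 206 FPKM in the cKO libraries. All 3 cKO libraries lay below all 3 controls for both tropomyosins, and for no other tested member of either list, while 11.8% of all tested rows had this arrangement and 6.51% the opposite. Both genes also give the tropomyosins of stress fibres in non-muscle cells.

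Tagln, transgelin (SM22α), an actin-bundling protein and early marker of the smooth muscle lineage, was nearly constant, at 715, 697 and 688 FPKM in controls 1, 2 and 3 and 667, 724 and 669 FPKM in cKO 1, 2 and 3. The regulatory light chain Myl9 was measured at 493, 471 and 476 FPKM in the controls and 478, 443 and 428 FPKM in the cKO libraries. Cald1, caldesmon, which restrains the binding of myosin to actin, gave 244, 246 and 232 FPKM in the controls and 239, 220.3 and 213 FPKM in the cKO libraries. These abundant genes varied little, the highest control exceeding the lowest by 1.04-fold for Tagln, 1.05-fold for Myl9 and 1.06-fold for Cald1, and the groups overlapped. Smtn, smoothelin, was close to them in steadiness, at 56.5, 54.99 and 52.8 FPKM in the controls and 49.98, 48.8 and 53.7 FPKM in the cKO libraries.

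Some markers of contractile smooth muscle, Myh11, Synpo2 and Myocd, were low. Lmod1 averaged 9.09 FPKM over the 6 libraries, above 61.9% of all rows. Others, given above, were higher, with means over the 6 libraries of 88.1 FPKM for Actg2, 85.8 FPKM for Cnn1 and 52.8 FPKM for Smtn. Myh11, the smooth muscle myosin heavy chain and its most restrictive marker, reached only 2.33, 1.94 and 1.42 FPKM in controls 1, 2 and 3 and 1.61, 1.09 and 1.77 FPKM in cKO 1, 2 and 3. Lmod1, leiomodin, which nucleates actin filaments, stood at 10.4, 8.77 and 10.3 FPKM in the controls and 9.81, 7.18 and 8.03 FPKM in the cKO libraries. Synpo2 lay between 0.53 and 0.82 FPKM, and Myocd, the coactivator myocardin, between 0.090 and 0.13 FPKM in the 6 libraries. On the FPKM scale Acta2 therefore exceeded Myh11 many-fold in every library. Des, desmin, the intermediate filament protein that skeletal and heart muscle share with smooth muscle, was measured at 4.03, 3.27 and 5.25 FPKM in the controls and 4.44, 6.07 and 5.27 FPKM in the cKO libraries. Des was lowest in control 2 and highest in cKO 2, the reverse of Acta2, Actg2 and Cnn1.

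Between libraries labelled cKO and controls, none of the 12 smooth muscle genes that passed the filter (3 or more libraries at 1 FPKM or above) had an adjusted p under 0.05 by limma on log2(FPKM + 1), and none had an unadjusted p under 0.05. Over all rows the same fit called 0%, with 1521 rows at an unadjusted p under 0.05, of which those lower in cKO made up 7.76% of rows and those higher 5.37%. The log2 fold change was negative for 11 of the 12 and positive for Des, with a median of -0.13, beside a median of -0.018 and a negative sign in 55.8% of all rows tested. Cnn1 had the lowest value, -0.33 ± 0.16 (SE), with a 95% interval of -0.71 to 0.055 and an adjusted p of 0.428. Des had the highest, 0.28 ± 0.16 (SE), with an interval of -0.09 to 0.65 and an adjusted p of 0.474. For Acta2 the value was -0.10 ± 0.077 (SE), with an interval of -0.28 to 0.086. The tropomyosins gave -0.18 ± 0.087 (SE) for Tpm1 and -0.16 ± 0.073 (SE) for Tpm2, with adjusted p of 0.426 and 0.414. Summed over the list, the controls held 4890.3 ± 96.2 FPKM (SD, n = 3) and the cKO libraries 4530.2 ± 201 FPKM (SD, n = 3), a ratio of 0.926. The sums of the cKO libraries lay below those of the controls, but cKO 1, at 4762 FPKM, was close to control 3, at 4780.1 FPKM. With each library left out in turn, 11 of 12 values were negative. Without cKO 1 the genes Cnn1, Lmod1 and Tpm2 had unadjusted p under 0.05 and adjusted p from 0.102 to 0.213 (limma), in a fit that passed 334 rows over the whole table. Without control 3, Des had a value of 0.43 and Myh11 of -0.34, with unadjusted p of 0.019 and 0.049 and adjusted p of 0.304 and 0.359 (limma). The value of Des was lowest, 0.15, without control 2, and that of Cnn1 ran from -0.49 without cKO 1 to -0.20 without cKO 2.

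**Figure D2:**
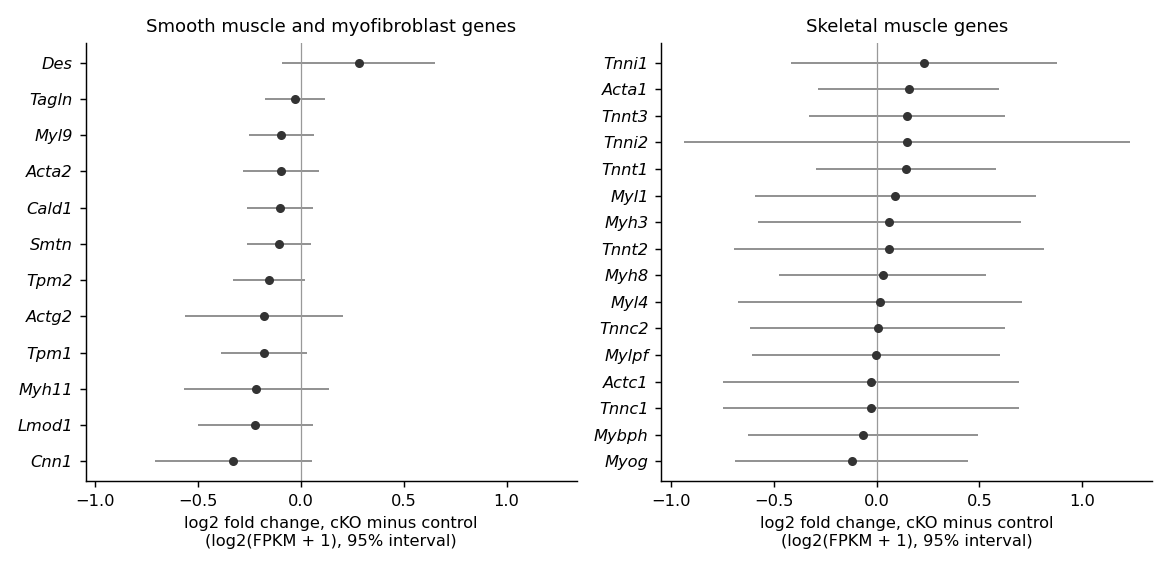
Log2 fold change of cKO against control on the log2(FPKM + 1) scale for the tested members, 12 smooth muscle and 16 skeletal muscle genes, with bars for the 95% interval from limma. Every interval includes 0. The smooth muscle values run from -0.33 (Cnn1) to 0.28 (Des), and the skeletal intervals are the wider ones.

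The skeletal list opens with its regulators. Myog, myogenin, the factor that commits myoblasts to fuse, was measured at 3.13, 1.97 and 5.10 FPKM in controls 1, 2 and 3 and 2.71, 2.76 and 3.18 FPKM in cKO 1, 2 and 3. Myod1 lay between 0.50 and 1.1 FPKM. Myog was highest in control 3 and lowest in control 2, and the 3 cKO libraries lay close together between these. The same library, control 3, was highest for Myod1.

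Of the sarcomeric actins, Acta1, the actin of mature skeletal muscle, stood at 24.7, 21.7 and 37.3 FPKM in controls 1, 2 and 3 and 29.2, 32.5 and 29.5 FPKM in cKO 1, 2 and 3. Actc1, the cardiac α-actin that developing skeletal muscle also expresses, gave 10.3, 8.87 and 21.4 FPKM in the controls and 9.99, 13.99 and 13.4 FPKM in the cKO libraries. Control 3 exceeded control 2 by 1.72-fold for Acta1 and by 2.41-fold for Actc1, with every cKO library between them. Acta2, by comparison, was 0.926 times as high in control 3 as in control 2.

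Myosin heavy chains followed. Myh3, the embryonic isoform, was measured at 3.35, 2.41 and 6.29 FPKM in controls 1, 2 and 3 and 3.45, 4.90 and 3.68 FPKM in cKO 1, 2 and 3. Myh8, the perinatal isoform, gave 1.78, 1.15 and 2.58 FPKM in the controls and 1.44, 2.55 and 1.63 FPKM in the cKO libraries. Both belong to stages before adult fibres form. The adult isoforms, from a further list of sarcomere genes, were lower than both in every library, with Myh1 at 0.85 to 1.70 FPKM, Myh2 at 0.040 to 0.14 FPKM and Myh4 at 0.020 to 0.14 FPKM, and the slow and cardiac Myh7 lay at 0.58 to 1.46 FPKM.

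The light chains were more abundant than the heavy chains on the FPKM scale. Mylpf, the regulatory light chain of fast fibres, stood at 24.6, 20.2 and 38.5 FPKM in controls 1, 2 and 3 and 21.5, 34.3 and 25.8 FPKM in cKO 1, 2 and 3. Myl1, the essential light chain of fast fibres, gave 10.8, 9.73 and 19.9 FPKM in the controls and 10.7, 18.6 and 12.9 FPKM in the cKO libraries, and Myl4, the embryonic and atrial essential light chain, 13.8, 10.1 and 24.3 FPKM in the controls and 12.9, 18.5 and 15.01 FPKM in the cKO libraries. For these 3 genes control 3 was the highest library, cKO 2 the next, and control 2 the lowest.

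Troponin has 3 subunits, and all were found in slow and fast forms. Among the troponin T genes, Tnnt1 (slow) was measured at 8.10, 7.02 and 10.6 FPKM in the controls and 7.24, 10.9 and 10.7 FPKM in the cKO libraries. Tnnt3 (fast) gave 7.52, 5.81 and 10.8 FPKM in the controls and 7.41, 9.84 and 9.19 FPKM in the cKO libraries. The highest library was cKO 2 for Tnnt1 and control 3 for Tnnt3, and control 2 was the lowest for both. Tnnt2, the cardiac form that embryonic skeletal muscle also makes, stood at 3.65, 3.19 and 9.28 FPKM in the controls and 5.28, 5.22 and 4.81 FPKM in the cKO libraries, and control 3, at 2.91 times control 2, stood above all the others. The inhibitory subunits were Tnni1 (slow), at 6.81, 4.25 and 10.8 FPKM in the controls and 7.49, 9.43 and 7.82 FPKM in the cKO libraries, and Tnni2 (fast), at 2.31, 0.38 and 2.64 FPKM in the controls and 0.75, 3.53 and 1.85 FPKM in the cKO libraries. Tnni2 spread the most of all tested members, 6.95-fold between controls 3 and 2. The calcium-binding subunit Tnnc1 (slow and cardiac) gave 10.5, 8.80 and 16.99 FPKM in the controls and 7.77, 16.6 and 11.4 FPKM in the cKO libraries. Its fast counterpart Tnnc2 gave 5.64, 5.07 and 9.94 FPKM in the controls and 6.73, 8.75 and 4.92 FPKM in the cKO libraries. Control 3 was again the highest library for both. Summed over the T, I and C subunits, the slow forms exceeded the fast forms in every library, 20.1 to 38.4 FPKM against 11.3 to 23.4 FPKM, and the cardiac inhibitory subunit Tnni3 stayed at 0.52 to 1.19 FPKM. Mybph, a myosin-binding protein of the thick filament, was measured at 2.81, 2.29 and 4.77 FPKM in the controls and 2.12, 3.67 and 3.33 FPKM in the cKO libraries. Ckm, the muscle creatine kinase of mature fibres, lay between 0 and 0.75 FPKM, again highest in control 3 and listed at 0 in control 2.

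None of the 16 tested skeletal genes had an adjusted or an unadjusted p under 0.05 for cKO against control (limma), and for all 16 the groups overlapped. The log2 fold change was positive for 11 and negative for 5, with a median of 0.045 beside -0.018 over all rows. Values ran from -0.12 ± 0.24 (SE) for Myog, with an interval of -0.69 to 0.45, to 0.23 ± 0.27 (SE) for Tnni1, with an interval of -0.42 to 0.87, and adjusted p lay between 0.730 and 0.997. The standard errors, 0.18 to 0.46, exceeded those of the smooth list, 0.062 to 0.16. The half-width of the 95% interval had a median of 0.63 against 0.19. The intervals of the skeletal genes therefore left room for larger differences, in either direction, than those of the smooth list. Summed over the list, the controls held 162.3 ± 62.7 FPKM (SD, n = 3) and the cKO libraries 164.98 ± 30.2 FPKM (SD, n = 3), a ratio of 1.02. The direction rested on single libraries. Without control 3 all 16 genes had positive values, with a median of 0.34, and Acta1, Tnnt2 and Tnni1 had unadjusted p under 0.05 (adjusted p 0.237 to 0.320, limma), and without control 2 the values of 14 of 16 were negative, with a median of -0.18.

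Library by library, the skeletal genes moved together, as the plot of relative levels shows. All 18 had the order control 3, then control 1, then control 2 among the controls, an order seen in 19.7% of all tested rows and in 2 of the 14 smooth muscle genes, Des and Synpo2. Control 3 was the highest of the 6 libraries for 16 of 18, beside 17.3% of all tested rows, and cKO 2 for the other 2, Tnnt1 and Tnni2. Control 2 alone was the lowest for 14 of 18, beside 15.2% of all tested rows. It tied with cKO 3 for Myod1, at 0.50 FPKM, and the exceptions were Tnnc1 and Mybph, lowest in cKO 1, and Tnnc2, lowest in cKO 3. Among the cKO libraries, cKO 2 was the highest for 15 of 18 (39.2% of all rows) and cKO 1 the lowest for 14 of 18 (37.2%). Myog, Myod1 and Tnnt2 were those for which cKO 2 did not lead. The ratio of control 3 to control 2 had a median of 2.20 over the 17 skeletal genes with a value above 0 in control 2, from 1.51 for Tnnt1 to 6.95 for Tnni2, while it had a median of 0.996 over the smooth list, from 0.716 for Actg2 to 1.61 for Des, and of 1 over all tested rows.

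**Figure D3:**
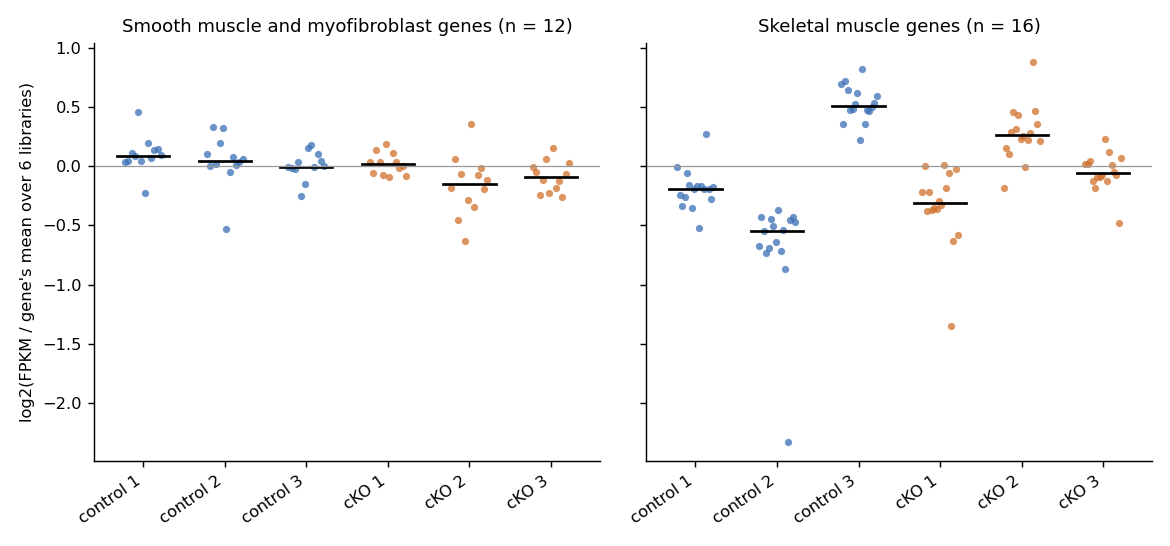
Level of each tested member in each library, as the log2 ratio to that gene's mean over the 6 libraries, for 12 smooth muscle genes (left) and 16 skeletal muscle genes (right). Points are genes, with controls in blue and cKO libraries in orange, and black bars are medians. The skeletal genes sit above 0 together in control 3 and below 0 together in control 2, and the medians of the smooth muscle genes vary less from library to library.

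The smooth muscle genes did not share that order. Control 1 was the highest library for 6 of 14, control 2 for 4, cKO 2 for 2, and control 3 and cKO 3 for 1 each, and cKO 2 was the lowest for 8 of 14, cKO 3 for 3, control 2 for 2 and cKO 1 for 1. As sums, the smooth list ran from 4958 FPKM in control 1, 4933 FPKM in control 2 and 4780.1 FPKM in control 3 to 4762 FPKM in cKO 1, 4425.9 FPKM in cKO 3 and 4403 FPKM in cKO 2, a span of 1.13-fold. The skeletal list ran from 233 FPKM in control 3, 197 FPKM in cKO 2 and 159.7 FPKM in cKO 3 to 140.5 FPKM in control 1, 138 FPKM in cKO 1 and 113 FPKM in control 2, a span of 2.05-fold. The smooth sum was therefore 20.5 times the skeletal sum in control 3, 22.3 times in cKO 2, 27.7 times in cKO 3, 34.6 times in cKO 1, 35.3 times in control 1 and 43.5 times in control 2. The ratio of the actins Acta2 and Acta1 had the same extremes, lowest in control 3 at 50.5 and highest in control 2 at 94.0. In bulk RNA, fewer cells of a type and less RNA per cell cannot be told apart.

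**Figure D4:**
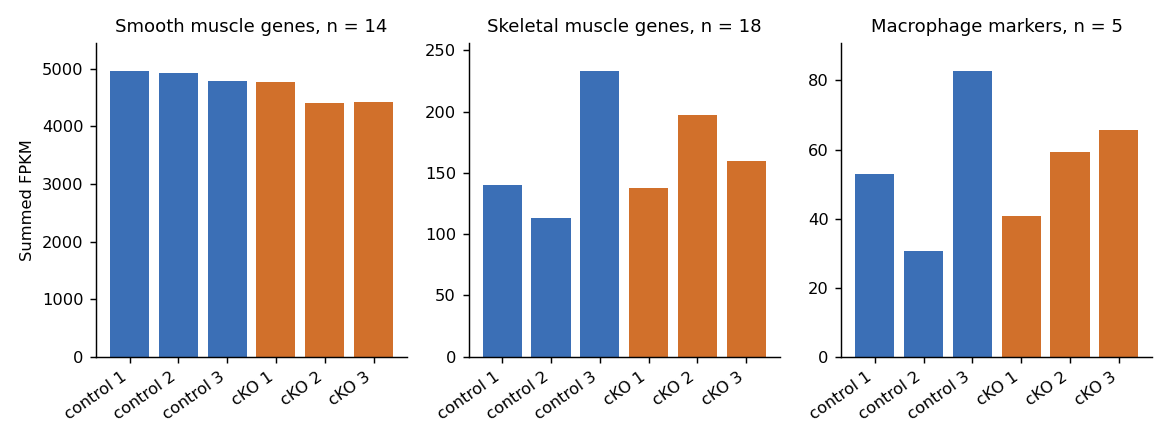
Summed FPKM in each library for the 14 smooth muscle genes, the 18 skeletal muscle genes and 5 macrophage markers, each on its own axis starting at 0, with controls in blue and cKO libraries in orange. The skeletal and macrophage sums are both highest in control 3 (233 and 82.7 FPKM) and lowest in control 2 (113 and 30.6 FPKM), and the smooth sums span 1.13-fold.

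Macrophage and endothelial marker sums were, like the skeletal sum, highest in control 3. Among the cKO libraries these 2 sums were highest in cKO 3, whereas the skeletal sum was highest in cKO 2. Within the cKO group, cKO 1 was the lowest for all 5 macrophage and all 4 endothelial markers. The same held for 14 of 18 skeletal genes and 37.2% of all rows tested. The control order 3, 1, 2 of the skeletal genes was also that of 3 of 4 endothelial markers, beside 19.7% of all rows. Other lists had other orders. The sum of 5 cartilage markers was lowest in control 3, at 86.5 FPKM, and that of 3 epithelial markers was highest in cKO 1, at 41.4 FPKM. All 5 macrophage markers had the order control 3, control 1, control 2, and their sum was 53.0, 30.6 and 82.7 FPKM in controls 1, 2 and 3 and 40.9, 59.3 and 65.8 FPKM in cKO 1, 2 and 3, nearly all of it Lyz2 (26.6 to 74.99 FPKM). Of the others, Cd68 lay at 2.69 to 7.10 FPKM, highest in cKO 3, and Csf1r at 0.84 to 1.31 FPKM. Adgre1 stayed at 0.32 to 0.91 FPKM and Ptprc at 0.070 to 0.18 FPKM. The sum of 4 endothelial markers was 1.53, 1.77 and 3.19 FPKM in the controls and 1.62, 2.80 and 3.08 FPKM in the cKO libraries. Their part in the spread of the skeletal genes was not tested. Satellite cell and myoblast markers were low, with Pax3 at 0.030 to 0.13 FPKM, Myf5 listed at 0 in 5 libraries and at 0.030 FPKM in cKO 3, Myf6 at 0 to 0.16 FPKM and Cdh15, M-cadherin, at 0.22 to 0.55 FPKM. Mymk, the membrane activator of myoblast fusion, stood at 2.17, 1.61 and 3.23 FPKM in the controls and 1.60, 2.53 and 1.91 FPKM in the cKO libraries, and its partner Mymx, myomixer, at 1.30, 0.30 and 2.06 FPKM in the controls and 0.91, 2.08 and 1.53 FPKM in the cKO libraries. Of 12 muscle precursor and fusion markers in the table, 7 had the control order of the skeletal genes, and 15 of 30 further genes of the sarcomere and muscle metabolism had it, Actn2, Atp2a1 and Mb among them. None of the 6 and 10 tested in these lists had an adjusted p under 0.05, and the log2 fold changes ran from -0.13 (Mymk) to 0.23 (Mymx) in the precursor list and from -0.46 (Actn3) to 1.11 (Cox6a2) in the sarcomere list. In the sarcomere list 1 gene in each direction had an unadjusted p under 0.05. Eno3, the muscle enolase, was lower, -0.37 ± 0.15 (SE), at an adjusted p of 0.366, and Cox6a2, a muscle subunit of cytochrome oxidase, was higher, at an adjusted p of 0.312.

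The regulators above the smooth muscle genes were measured too. Srf was steady, at 20.97, 22.9 and 20.9 FPKM in controls 1, 2 and 3 and 21.4, 20.5 and 20.8 FPKM in cKO 1, 2 and 3. Mrtfa, the SRF coactivator held in the cytoplasm by monomeric actin, gave 15.6, 16.5 and 13.5 FPKM in the controls and 13.2, 11.2 and 12.98 FPKM in the cKO libraries, and Prdm6, a repressor described in smooth muscle, 6.33, 6.90 and 6.68 FPKM in the controls and 5.49, 5.19 and 5.44 FPKM in the cKO libraries. For both, all cKO libraries lay below all controls, as in 11.8% of all rows tested. Their log2 fold changes were -0.27 ± 0.10 (SE) and -0.26 ± 0.061 (SE), with unadjusted p of 0.029 and 0.0037 and adjusted p of 0.338 and 0.312 (limma), which did not pass. Of all rows tested, 7.76% were lower in cKO at an unadjusted p under 0.05 (limma). The other 4 tested regulators had unadjusted p above 0.05, and Klf4 had the highest value of the list, 0.47 ± 0.29 (SE), at 10.97, 9.11 and 11.97 FPKM in the controls and 8.86, 18.8 and 20.6 FPKM in the cKO libraries.

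In the non-muscle actomyosin list all 24 genes were tested, 16 had negative and 8 positive values, the median was -0.018, and none passed. Myh10, a non-muscle myosin heavy chain, had the lowest value, -0.18 ± 0.064 (SE), and Tagln2, the broadly expressed transgelin, the highest, 0.29 ± 0.11 (SE), with adjusted p of 0.341 and 0.342. The cytoplasmic actins gave -0.11 ± 0.076 (SE) for Actb and 0.0047 ± 0.078 (SE) for Actg1. All 5 tested pericyte and mural markers had positive values, from 0.028 ± 0.21 (SE) for Cspg4 to 0.81 ± 0.21 (SE) for Mcam, an adhesion molecule of mural and endothelial cells. Positive values were found in 5128 of the 11590 rows tested. Notch3, at 0.29 ± 0.13 (SE), and Pdgfrb, at 0.14 ± 0.079 (SE), had unadjusted p above 0.05 (limma). Mcam was measured at 2.95, 3.76 and 6.23 FPKM in the controls and 7.40, 9.12 and 7.53 FPKM in the cKO libraries, with an adjusted p of 0.312 (limma). All its cKO libraries lay above all controls, as in 6.51% of all rows tested. Abcc9, a subunit of potassium channels of mural cells, had a value of 0.38 ± 0.15 (SE) and an adjusted p of 0.366. Rgs5, a defining pericyte marker, lay under the filter and went the other way, at 0.58, 0.46 and 0.59 FPKM in the controls and 0.15, 0.27 and 0.27 FPKM in the cKO libraries, with all cKO libraries below all controls (11.8% of all rows tested). Kcnj8, also under the filter, overlapped between the groups. It lay at 0.16, 0.39 and 0.37 FPKM in the controls and 0.34, 0.91 and 0.56 FPKM in the cKO libraries.

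Other markers differed between the groups beside the smooth muscle sums without passing the adjustment. Of 8 osteoblast markers, 4 had all cKO libraries below all controls and an unadjusted p under 0.05 (limma), Sp7, Alpl, Bglap and Ibsp. Over all tested rows, 11.8% had that arrangement and 7.76% were lower at an unadjusted p under 0.05. Ibsp had a value of -1.27 ± 0.32 (SE) and an adjusted p of 0.312 (limma). The sum of 3 epithelial markers was 0.37 to 12.5 FPKM in the controls and 15.1 to 41.4 FPKM in the cKO libraries. Fabp4, an adipocyte and endothelial fatty acid carrier, was at 13.9, 19.8 and 22.4 FPKM in the controls and 49.3, 85.3 and 53.6 FPKM in the cKO libraries, whereas Adipoq, Plin1 and Cidec stayed at or under 0.39 FPKM in every library. Comp, a cartilage matrix protein, and Acan, aggrecan, had values of 0.65 ± 0.21 (SE) and 0.50 ± 0.20 (SE), with unadjusted p under 0.05 and adjusted p of 0.315 and 0.376. Their part in the values of the smooth muscle genes was not tested.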

How the data were processed

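Calvarial preosteoblast RNA was read as 150 bp pairs on a MGISEQ-2000 instrument. The authors mapped the reads with HISAT2 to the mouse transcriptome (GRCm38 in the submitters' processing notes, which also name DESeq) and deposited FPKM per library, with symbols as the row names and values rounded to 2 decimal places. The program that computed FPKM and the annotation release are not given in the sources used here. FPKM are not counts, so log2(FPKM + 1) was compared by the two-sided moderated test of limma (version 3.58.1, under R 4.3.3) with Benjamini-Hochberg adjustment over the 11590 rows that reached 1 FPKM in 3 or more libraries. This scale understates the change of low genes. The test was tested on simulated data. Members are given by library where they passed the filter and otherwise by range, and from other lists genes with an unadjusted p under 0.05 and the lowest and highest fold change are named, with others given as context after their values were seen. The members and lists were chosen with earlier results of these data known, and lists are described by counts and medians without a test. Promoters were searched by script, and transcripts were aligned with Biopython 1.88. Protein identities, planned at the outset, were replaced by coding sequence identities. Alternatives covered the pseudocount (0.1), filter, scaling, variance trend, replicate block, a Y-linked covariate and leaving out each library.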

Additional observations from a re-analysis of the deposited data

How the results depend on the processing

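FPKM give no depth, so limits of detection could not be set. Of 391 member values under 14 alternatives, 354 kept their sign and 37 changed it, and none passed an adjusted p under 0.05. The smooth median stayed negative throughout. The skeletal median became -0.025 with the Y-linked covariate and ran from -0.18 to 0.34 with 1 library left out, negative without control 1, control 2 or cKO 2. The difference between the lists, the log2 ratio of cKO to control sums of the skeletal list minus that of the smooth list, was 0.13 and ran from -0.075 to 0.50 with 1 library left out. Rows passing over the table ran from 0 to 334 (334 without cKO 1 and 2 without control 3). Members at an unadjusted p under 0.05 ran from 0 to 3 in either list with 1 library left out, and 1 smooth gene, Lmod1, had it with a replicate block and with the Y-linked covariate (1 each). The replicate block, which treats equal numbers as paired, changed no other call. Correlations of deviations for equal numbers were 0.031, -0.17 and 0.21, so the numbers were not treated as pairs. Mylpf became 0.011 with median scaling and 0.020 with quantile normalization. With the Y-linked covariate Myh3 was -0.025, Myl4 -0.074, Tnnt2 -0.13 and Tnnc2 -0.036. With 1 library left out, members whose sign changed ran as follows: Myog -0.37 to 0.15, Actc1 -0.26 to 0.33, Myh3 -0.18 to 0.37, Myh8 -0.15 to 0.21, Mylpf -0.20 to 0.25, Myl1 -0.12 to 0.39, Myl4 -0.25 to 0.34, Tnnt2 -0.18 to 0.47, Tnnt3 -0.038 to 0.36, Tnni1 -0.061 to 0.52, Tnni2 -0.30 to 0.49, Tnnc1 -0.28 to 0.23, Tnnc2 -0.17 to 0.27 and Mybph -0.24 to 0.17. The cause was not tested.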

Other observations

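Some muscle genes outside both member lists had patterns of their own. Actn3, the α-actinin of fast fibres, was listed at 0.020, 1.42 and 2.15 FPKM in controls 1, 2 and 3 and at 1.44, 0.12 and 0.10 FPKM in cKO 1, 2 and 3, an order of libraries unlike that of the skeletal genes. Cox6a2 was measured at 0.72, 0.60 and 1.20 FPKM in the controls and 1.18, 4.81 and 3.78 FPKM in the cKO libraries. Cox8b, another tissue-restricted cytochrome oxidase subunit, was listed at 0 in controls 2 and 3 and in cKO 1, and at 0.66 FPKM in control 1, 1.53 FPKM in cKO 2 and 1.28 FPKM in cKO 3. Hey1 and Heyl, Notch target genes, lay under the filter, with cKO 2 and cKO 3 at 0.70 to 0.90 FPKM and every other library at 0.080 to 0.44 FPKM.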
